A study of Mus musculus with 12 samples.

Results

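The CDK inhibitor and Gadd45 genes were followed in a mouse lung cancer line with or without NRF2 overexpression and with or without the histone deacetylase inhibitor romidepsin. The set held 10 genes taken by symbol (Cdkn1a, Cdkn1b, Cdkn1c, Cdkn2a, Cdkn2b, Cdkn2c, Cdkn2d, Gadd45a, Gadd45b and Gadd45g) out of 35013 genes in the count table, and each of the 10 was listed with at least 1 count. Poly-A RNA was sequenced from KP1 cells, labelled LUAD (lung adenocarcinoma). There were 4 groups of 3 biological replicates, each treated for 16 h. They were NRF2 overexpression with 5 nM romidepsin, empty vector (EV) with 5 nM romidepsin, NRF2 overexpression with DMSO (the solvent), and EV with DMSO. The labels do not spell out KP, the vector, its promoter, or whether each line came from 1 clone.

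CDK inhibitors bind cyclin-dependent kinases and slow the cell cycle. The CIP/KIP proteins p21 (Cdkn1a), p27 (Cdkn1b) and p57 (Cdkn1c) bind many cyclin-CDK complexes, while the INK4 proteins p16 (Cdkn2a), p15 (Cdkn2b), p18 (Cdkn2c) and p19 (Cdkn2d) bind the D-type cyclin kinases CDK4 and CDK6. The small, stress-inducible GADD45 proteins bind the kinase MEKK4 upstream of p38 and JNK, and also PCNA. Cdkn1a is a transcript widely known to rise when histone deacetylases are inhibited, and p27 is controlled to a large extent through its translation and degradation. Cdkn2a also encodes the ARF protein, which stabilises p53, from another first exon, and the gene-level counts used here do not separate these transcripts.

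The start regions of Cdkn1a, Cdkn2d, Gadd45b, Gadd45g, Cdkn1b and Cdkn2b are shown because these 6 genes with a window passed the test with romidepsin in both lines, 4 upward and 2 downward. Windows of 300 bases (250 before to 50 after the start) were taken from RefSeq on build GRCm38.p6 and were found for 9 of the 10 genes, not for Cdkn1c. Capitals mark matches on either strand to GGGCGG (the GC box bound by Sp factors), to CCAAT (bound by NF-Y), to CACGTG (an E-box), to TGACNNNGC (the core of the antioxidant response element bound by NRF2 with small MAF proteins) or to TGACGTCA (the cAMP response element). Each window is printed 5′ to 3′ on the strand of its gene.
Cdkn1a start 1 (chr17:29090729-29091028, plus strand): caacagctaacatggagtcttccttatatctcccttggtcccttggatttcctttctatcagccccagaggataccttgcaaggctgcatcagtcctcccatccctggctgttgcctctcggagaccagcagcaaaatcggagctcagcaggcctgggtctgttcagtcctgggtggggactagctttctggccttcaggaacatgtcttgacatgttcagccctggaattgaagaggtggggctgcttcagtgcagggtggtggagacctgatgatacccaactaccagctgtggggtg
Cdkn1a start 2 (chr17:29093519-29093818, plus strand): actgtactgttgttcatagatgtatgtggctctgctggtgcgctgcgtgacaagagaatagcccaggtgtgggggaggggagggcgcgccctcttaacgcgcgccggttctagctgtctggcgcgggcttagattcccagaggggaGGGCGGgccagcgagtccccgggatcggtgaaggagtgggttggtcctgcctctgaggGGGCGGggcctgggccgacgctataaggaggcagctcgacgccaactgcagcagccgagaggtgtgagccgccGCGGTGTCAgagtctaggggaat
Cdkn1b (chr6:134920151-134920450, plus strand): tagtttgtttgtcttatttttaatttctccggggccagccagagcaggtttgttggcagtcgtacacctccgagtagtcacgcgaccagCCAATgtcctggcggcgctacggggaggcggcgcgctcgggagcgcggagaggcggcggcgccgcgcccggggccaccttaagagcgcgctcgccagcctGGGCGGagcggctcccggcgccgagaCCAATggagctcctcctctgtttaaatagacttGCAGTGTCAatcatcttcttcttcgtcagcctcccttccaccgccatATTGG
Cdkn2b (chr4:89310983-89311282, minus strand): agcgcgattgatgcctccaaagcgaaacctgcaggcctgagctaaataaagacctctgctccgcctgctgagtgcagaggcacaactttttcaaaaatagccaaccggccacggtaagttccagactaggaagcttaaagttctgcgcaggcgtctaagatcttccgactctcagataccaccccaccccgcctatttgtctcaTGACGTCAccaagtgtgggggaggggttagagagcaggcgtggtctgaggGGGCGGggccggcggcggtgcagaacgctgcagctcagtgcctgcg
Cdkn2d (chr9:21291160-21291459, minus strand): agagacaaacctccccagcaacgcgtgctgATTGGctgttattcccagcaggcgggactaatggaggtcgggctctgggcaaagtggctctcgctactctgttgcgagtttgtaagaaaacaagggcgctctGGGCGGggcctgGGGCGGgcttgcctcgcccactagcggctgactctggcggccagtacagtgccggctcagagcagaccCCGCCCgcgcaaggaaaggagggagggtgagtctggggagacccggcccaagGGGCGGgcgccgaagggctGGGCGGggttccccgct
Gadd45b (chr10:80929841-80930140, plus strand): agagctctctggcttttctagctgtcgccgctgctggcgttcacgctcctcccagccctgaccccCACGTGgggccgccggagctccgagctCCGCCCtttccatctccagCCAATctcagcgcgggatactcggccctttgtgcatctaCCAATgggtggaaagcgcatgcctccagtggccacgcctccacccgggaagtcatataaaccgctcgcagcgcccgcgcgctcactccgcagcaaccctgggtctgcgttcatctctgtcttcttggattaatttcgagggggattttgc
Gadd45g (chr13:51846425-51846724, plus strand): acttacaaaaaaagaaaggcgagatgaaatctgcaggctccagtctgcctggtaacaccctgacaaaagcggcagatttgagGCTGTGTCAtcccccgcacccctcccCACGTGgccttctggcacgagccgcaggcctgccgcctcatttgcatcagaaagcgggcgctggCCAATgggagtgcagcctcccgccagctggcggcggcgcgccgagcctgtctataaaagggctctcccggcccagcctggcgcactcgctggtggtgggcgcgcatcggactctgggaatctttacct

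Among 32851 windows of the same length, GGGCGG stood in 35.7%, CCAAT in 37.4%, TGACNNNGC in 12.4%, CACGTG in 7.15% and TGACGTCA in 1.79%. The genes of the set with a window numbered 9, of which 8 held GGGCGG, 7 held CCAAT and 4 held TGACNNNGC in at least 1 of their 12 windows. These counts are per gene, and some genes had a second window, whereas the shares above are per window. The counts and the shares are therefore not directly comparable. The upstream Cdkn1a window held none of the 5 motifs and 2 CpG dinucleotides, whereas the window at its second start held 2 GC boxes, 1 TGACNNNGC match and 23 CpG dinucleotides. The Cdkn2d window had 5 GC boxes, and the Gadd45g window had no GC box but 1 match to CCAAT, 1 to CACGTG and 1 to TGACNNNGC. The Gadd45b window had 1 GC box, 2 CCAAT matches and 1 CACGTG match. Cdkn1b had 3 CCAAT matches, 1 GC box and 1 TGACNNNGC match, and Cdkn2b had 1 GC box and 1 TGACGTCA match. The median window held 7 CpG dinucleotides. A match describes the letters, not a bound site.

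Library totals ran from 16842824 to 28003010 estimated counts, and a floor of 3 counts lay between 0.105 and 0.182 CPM (estimated counts per library of equal size, with TMM factors that balance library composition). Nfe2l2, which encodes NRF2, was at 349 ± 13.8 CPM in NRF2 cells with romidepsin, against 96.3 ± 2.90 CPM in EV cells (SD, n = 3 each), and at 305 ± 40.7 CPM in NRF2 cells with DMSO, against 102 ± 1.37 CPM in EV cells. NRF2 with DMSO replicate 3 stood apart, with 7.30% mitochondrial counts against at most 6.35% elsewhere. Over all tested genes it lay furthest from its group's other libraries (root-mean-square log2 distance 0.465, against at most 0.35 elsewhere). Without it, 3049 genes passed the test of whether the romidepsin effect differed between the lines, against 2127 with it. Values are given without this library wherever a result rests on it. Of the 9 lung epithelial markers, the keratins and Cdh1 were abundant (Krt8 at 1240 to 3410 CPM). Epcam ran only from 0 to 7.47 CPM, and Nkx2-1, Sftpb and Sftpc reached at most 0.246, 0.214 and 0.0703 CPM. A sum over these markers is thus nearly all keratins and Cdh1. The summed epithelial markers were 9420 to 9910 CPM in NRF2 cells with romidepsin, 6360 to 6500 in EV cells with romidepsin, 5480 to 6190 in NRF2 cells with DMSO and 3750 to 3780 in EV cells with DMSO, and the part of this shift in the results below was not tested. The 7 mesenchymal markers summed to 5200 to 5560 CPM in NRF2 cells with romidepsin and 6080 to 6160 in EV cells with romidepsin, against 2890 to 3210 in NRF2 cells with DMSO and 3360 to 3510 in EV cells with DMSO. Nearly all of that sum was Vim (2880 to 6150 CPM), and no other marker of the list was over 8.23 CPM. The 3 immune markers used summed to 48.2 to 70.3 CPM with romidepsin against 2.83 to 4.52 CPM with DMSO, nearly all of it Cd68, while Ptprc and Cd3e stayed at or under 0.566 CPM. Of the 3 endothelial markers, Pecam1 lay at 4 to 10.1 CPM and Cdh5 reached at most 0.142 CPM.

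Among the CIP/KIP genes, Cdkn1a rose about 6- to 11-fold with romidepsin while Cdkn1b fell. Cdkn1a had 51.8, 53.3 and 57.6 CPM in NRF2 cells with romidepsin, against 8.95, 8.68 and 8.48 CPM with DMSO. In EV cells Cdkn1a had 42.2, 39.1 and 41.8 CPM with romidepsin, against 3.69, 2.90 and 4.74 CPM with DMSO. Every romidepsin library lay above every DMSO library, and within each treatment every NRF2 library lay above every EV library. The log2 fold change of romidepsin over DMSO was 2.64 ± 0.09 (SE, 6.21-fold) in NRF2 cells (edgeR quasi-likelihood test, adjusted p = 2.6e-14) and 3.40 ± 0.11 (10.6-fold) in EV cells (edgeR adjusted p = 1.3e-14). By log2 fold change Cdkn1a stood 985th from the top in NRF2 cells and 633rd in EV cells among the 13502 genes tested, so many genes rose more. In these bulk samples, more cells expressing a transcript and more transcript per cell cannot be told apart.

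Cdkn1b had 48.8, 47.9 and 47.2 CPM in NRF2 cells with romidepsin, against 69.8, 72.0 and 80.3 CPM with DMSO. In EV cells it had 51.7, 52.6 and 48.3 CPM with romidepsin, against 87.2, 81.1 and 80.7 CPM with DMSO. The treatment groups did not overlap in either line, and Cdkn1b was 1.54-fold lower in NRF2 cells (log2 fold change -0.62 ± 0.06, edgeR adjusted p = 1.4e-08) and 1.63-fold lower in EV cells (-0.71 ± 0.06, edgeR adjusted p = 3.1e-09). Cdkn1c was close to silent with DMSO. Its estimated counts were 30, 47 and 29 in NRF2 cells with romidepsin and 13, 11 and 4 in EV cells with romidepsin, against 0, 0 and 0 in NRF2 cells with DMSO and 0, 1 and 0 in EV cells with DMSO. Cdkn1c passed the filter on low counts only through its romidepsin libraries, so it had to differ and is left out of the counts of genes below. With romidepsin it was at least 33.1-fold higher in NRF2 cells (106 counts against a floor of 3 counts over the DMSO group), and 27-fold higher in EV cells (28 counts against 1, 95% exact counting interval 4.47 to 1110). Even with romidepsin it reached only 1.57 ± 0.145 CPM in NRF2 cells and 0.441 ± 0.230 CPM in EV cells (SD, n = 3 each).

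**Figure D1:**
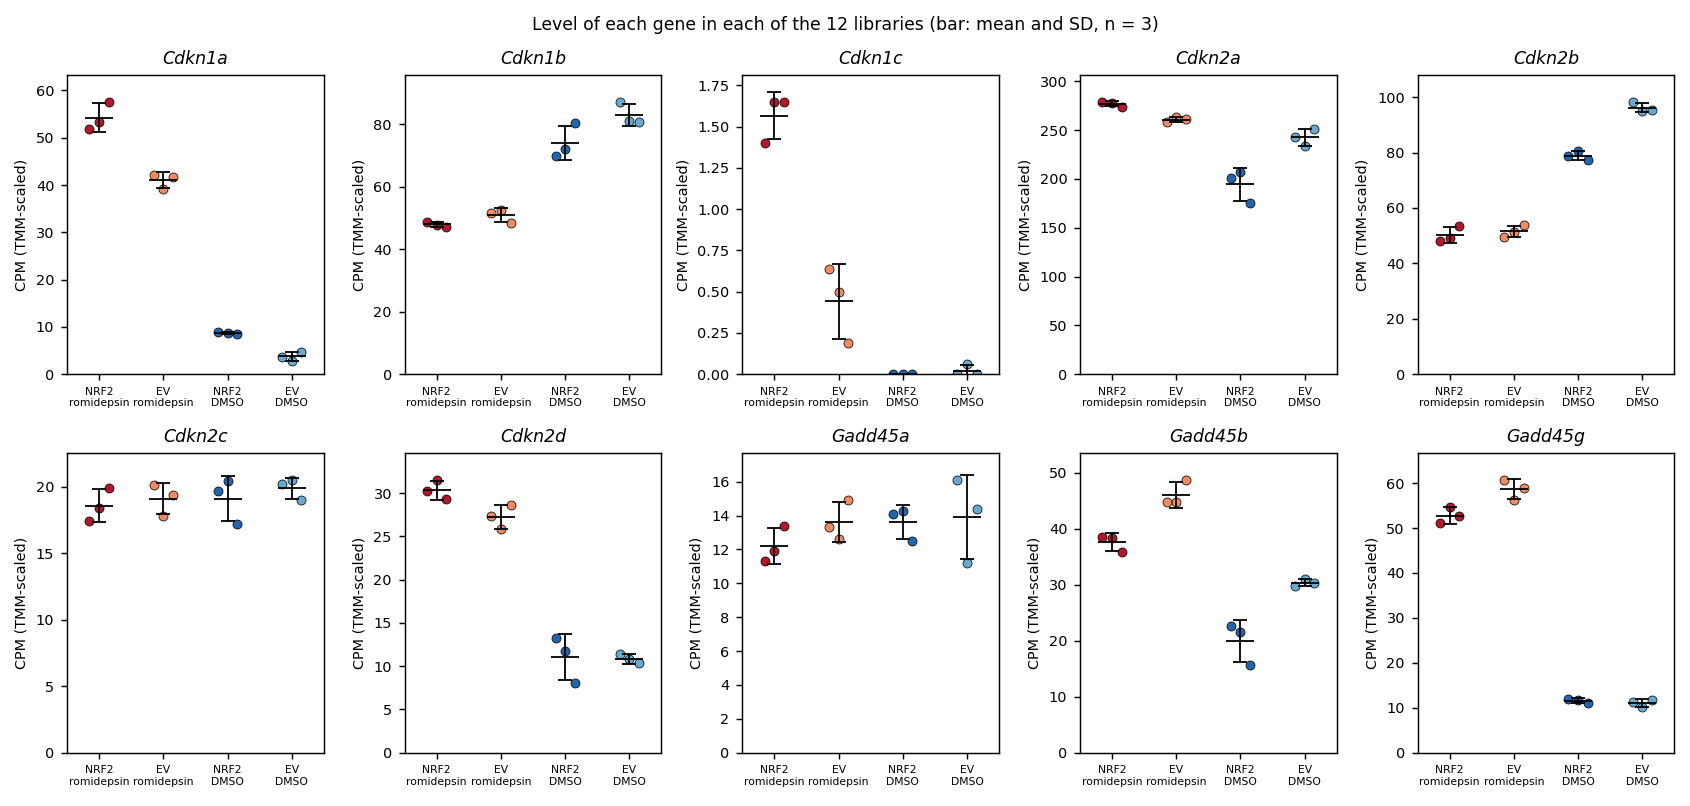
Level of each of the 10 genes in each of the 12 libraries, in TMM-scaled CPM on a linear axis from 0 for each gene, with the groups NRF2 with romidepsin, EV with romidepsin, NRF2 with DMSO and EV with DMSO; points are libraries, and bars are the mean and SD of 3. Cdkn1a, Cdkn2d and Gadd45g sat higher with romidepsin in both lines, Cdkn1b and Cdkn2b sat lower, and Cdkn2c and Gadd45a overlapped.

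Scaled by the length of the longest annotated transcript, the summed level of the CIP/KIP genes was 37.4 ± 1.33 CPM per kb in NRF2 cells with romidepsin against 20.4 ± 1.11 with DMSO, and 31.1 ± 0.745 CPM per kb in EV cells with romidepsin against 20.1 ± 0.843 with DMSO (SD, n = 3 each). Cdkn1a made up 69.6% of that sum in NRF2 cells with romidepsin and 63.4% in EV cells with romidepsin, against 20.5% in NRF2 cells with DMSO and 9.04% in EV cells with DMSO. Cdkn1b held 28.2% in NRF2 cells with romidepsin and 35.9% in EV cells with romidepsin, against 79.5% and 90.9% in the NRF2 and EV cells with DMSO. Per kb, the order of Cdkn1a and Cdkn1b was thus opposite with romidepsin and with DMSO, while in CPM not scaled by length Cdkn1b stayed above Cdkn1a in EV cells with romidepsin. The order was also opposite per median transcript length (67.3% Cdkn1a against 19.4% in NRF2 cells).

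Within the INK4 genes the response was uneven: Cdkn2d rose, Cdkn2b fell, and Cdkn2c did not pass the test. Cdkn2d had 30.2, 31.5 and 29.3 CPM in NRF2 cells with romidepsin, against 13.3, 11.7 and 8.06 CPM with DMSO. In EV cells it had 27.3, 25.8 and 28.6 CPM with romidepsin, against 11.4, 10.8 and 10.3 CPM with DMSO. All 6 romidepsin libraries lay above all 6 DMSO libraries, and the rise was 2.72-fold in NRF2 cells (log2 fold change 1.45 ± 0.12, edgeR adjusted p = 5.6e-09) and 2.51-fold in EV cells (1.33 ± 0.12, edgeR adjusted p = 2.5e-08). Replicate 3 gave the lowest value in the NRF2 cells with DMSO, and without it the NRF2 log2 fold change was 1.27.

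Cdkn2b, whose annotated gene lies 11.6 kb from Cdkn2a on chromosome 4 (Cdkn2b at 89306299-89311039, Cdkn2a at 89274471-89294653, both on the minus strand of GRCm38), went the other way. Cdkn2b had 47.9, 49.3 and 53.4 CPM in NRF2 cells with romidepsin, against 78.7, 80.6 and 77.4 CPM with DMSO. In EV cells it had 49.6, 51.2 and 53.8 CPM with romidepsin, against 98.3, 95 and 95.4 CPM with DMSO. All romidepsin libraries lay below all DMSO libraries, by 1.58-fold in NRF2 cells (log2 fold change -0.66 ± 0.05, edgeR adjusted p = 1.2e-09) and 1.87-fold in EV cells (-0.90 ± 0.05, edgeR adjusted p = 1.9e-11).

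Cdkn2a, by far the highest of the 10 genes per kb (217 to 310 CPM per kb by group mean), had 279, 278 and 274 CPM in NRF2 cells with romidepsin, against 201, 207 and 175 CPM with DMSO. In EV cells it had 258, 263 and 261 CPM with romidepsin, against 243, 234 and 251 CPM with DMSO. Cdkn2a rose 1.42-fold in NRF2 cells (log2 fold change 0.51 ± 0.05, edgeR adjusted p = 8e-08), or by 0.42 on the log2 scale without replicate 3 of the NRF2 cells with DMSO. In EV cells its libraries did not overlap, but the difference of 0.10 ± 0.05 on the log2 scale (95% interval -0.01 to 0.21) did not pass the test (edgeR adjusted p = 0.085). That call depended on the scaling, since RLE scaling gave 0.13 (edgeR adjusted p = 0.026) and library-size scaling 0.22 (edgeR adjusted p = 0.00091). It also passed at 0.11 without replicate 3 of the NRF2 cells with DMSO, which shares the estimate of the spread (edgeR adjusted p = 0.0048). Library-size and upper-quartile scaling moved the median of all genes by 0.11 to 0.14 on the log2 scale in the romidepsin comparisons. Cdkn2c lay between 17.2 and 20.5 CPM in all 12 libraries, and its 95% intervals ran from -0.22 to 0.12 in NRF2 cells and -0.23 to 0.11 in EV cells on the log2 scale, with a sign that turned under both of these scalings. The annotated Cdkn2a transcripts share most of their sequence, and Cdkn2a and Cdkn2b are close paralogues, so the share of reads divided between them by the authors' counting is uncertain. Per kb, Cdkn2a made up 82.7% and 82.0% of the INK4 sum in NRF2 and EV cells with romidepsin, against 75.0% and 76.2% in NRF2 and EV cells with DMSO, and Cdkn2b 9.64% and 10.4% against 19.7% and 19.4%.

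Of the GADD45 genes, Gadd45g moved most. Gadd45g had 51.1, 54.7 and 52.6 CPM in NRF2 cells with romidepsin, against 12, 11.7 and 11.0 CPM with DMSO. In EV cells it had 60.7, 56.3 and 59.0 CPM with romidepsin, against 11.2, 10.1 and 11.8 CPM with DMSO. The groups were far apart, and the rise was 4.55-fold in NRF2 cells (95% interval 2.05 to 2.32 on the log2 scale, edgeR adjusted p = 4.3e-15) and 5.27-fold in EV cells (2.26 to 2.54, edgeR adjusted p = 3e-15).

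Gadd45b had 38.6, 38.4 and 35.8 CPM in NRF2 cells with romidepsin, against 22.6, 21.5 and 15.6 CPM with DMSO. In EV cells it had 44.7, 44.8 and 48.7 CPM with romidepsin, against 29.7, 31.0 and 30.3 CPM with DMSO. All romidepsin libraries lay above all DMSO libraries of the same line, 1.88-fold in NRF2 cells (log2 fold change 0.91 ± 0.09, edgeR adjusted p = 1.1e-07) and 1.52-fold in EV cells (0.60 ± 0.09, edgeR adjusted p = 1e-05); the NRF2 value was 0.76 without replicate 3 of the NRF2 cells with DMSO. Gadd45a, the p53-inducible member, did not pass the test in either line: it had 11.3, 11.9 and 13.4 CPM in NRF2 cells with romidepsin against 14.1, 14.3 and 12.5 CPM with DMSO, and 13.3, 12.6 and 14.9 CPM in EV cells with romidepsin against 16.1, 11.2 and 14.4 CPM with DMSO. Its log2 difference was -0.17 in NRF2 cells (95% interval -0.42 to 0.07) and -0.04 in EV cells (-0.28 to 0.21), where upper-quartile and library-size scaling turned its sign. Without replicate 3 of the NRF2 cells with DMSO the NRF2 value was -0.25 and passed (edgeR adjusted p = 0.044).

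Per kb, Gadd45g led the GADD45 sum with 55.7% in NRF2 cells and 53.8% in EV cells with romidepsin, against 29.0% in NRF2 cells and 22.7% in EV cells with DMSO. Gadd45b held 33.1% and 35.3% in NRF2 and EV cells with romidepsin, against 41.1% and 52.3% with DMSO. The order with romidepsin depends on the length used, since per median transcript length Gadd45g held 42.6% and Gadd45b 44.1% in EV cells with romidepsin.

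**Figure D2:**
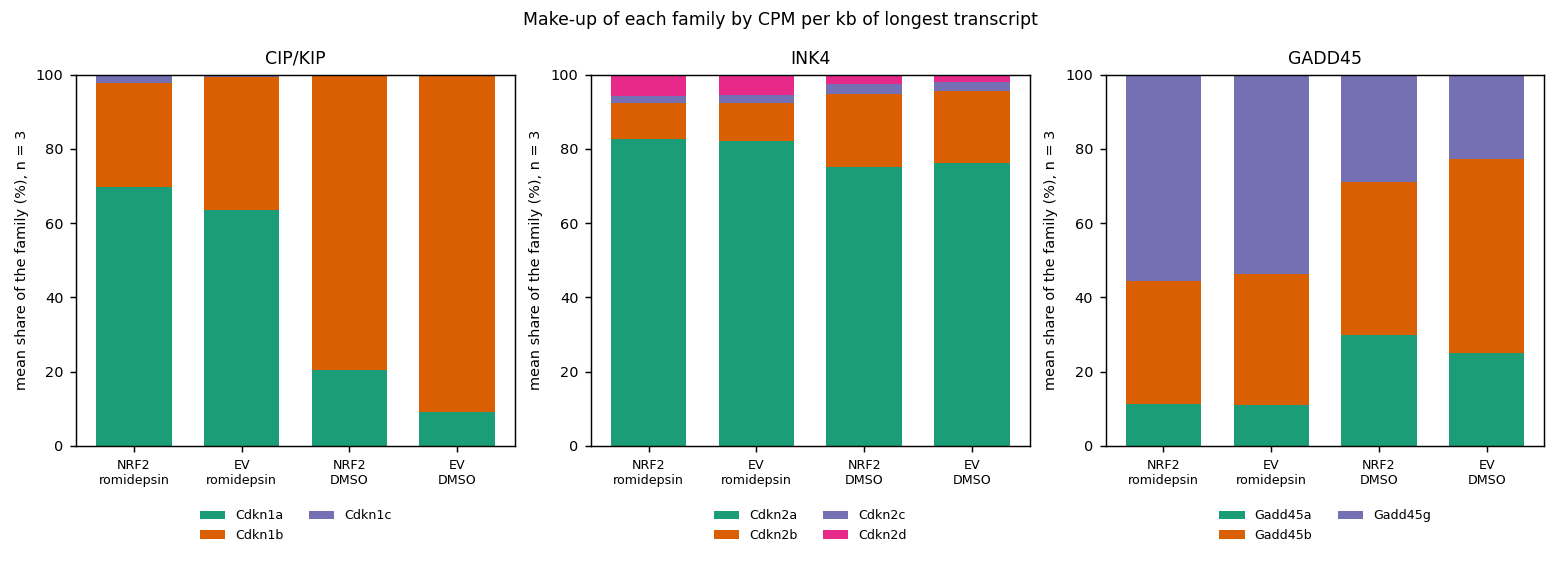
Share of each gene, in percent, in the summed CPM per kb of its family (CIP/KIP, INK4, GADD45) for NRF2 with romidepsin, EV with romidepsin, NRF2 with DMSO and EV with DMSO; bars are means over 3 libraries and start at 0. Cdkn1a held 69.6% of the CIP/KIP sum in NRF2 cells with romidepsin and 20.5% with DMSO.

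Apart from Cdkn1c, 5 genes of the set rose and 2 fell with romidepsin in NRF2 cells, and 4 rose and 2 fell in EV cells. The same test called 79.8% of all 13502 genes in NRF2 cells (40.5% higher and 39.3% lower) and 76.5% in EV cells (39.1% higher and 37.4% lower). With most genes called, a count of 7 of 9 or 6 of 9 is near the background, and only the sizes set single genes apart: the median absolute log2 change of all genes was 0.65 in NRF2 cells and 0.55 in EV cells.

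**Figure D3:**
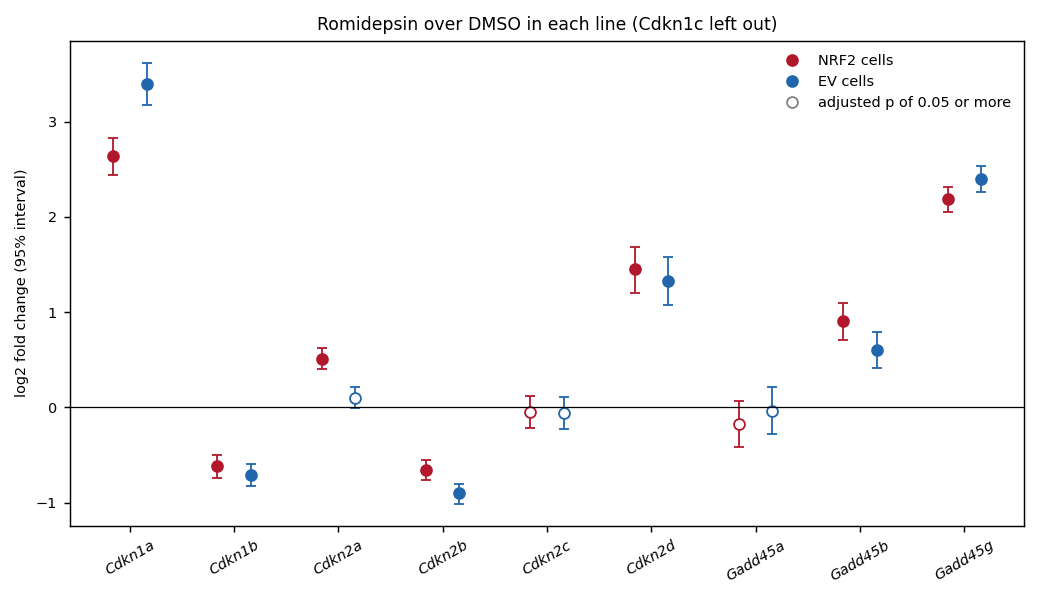
Log2 fold change of romidepsin over DMSO for the 9 genes other than Cdkn1c in NRF2 and EV cells, with 95% intervals; open points did not pass an adjusted p of 0.05. Cdkn1a, Cdkn2d, Gadd45b and Gadd45g lay above 0 in both lines, Cdkn1b and Cdkn2b below 0.

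Levels between the genes were compared per kb of the longest annotated transcript, and their order depends on the length used. For example, the longest transcript of Gadd45b has 1284 bases and the median 732, while both are 1390 bases for Cdkn2b. In NRF2 cells with romidepsin the order of mean CPM per kb was Cdkn2a (310), Gadd45g (49.3), Cdkn2b (36.1), Gadd45b (29.3), Cdkn1a (26.1), Cdkn2d (21.3), Cdkn1b (10.5), Gadd45a (9.96), Cdkn2c (7.52) and Cdkn1c (0.826). Cdkn1b at 10.5 ± 0.175 and Gadd45a at 9.96 ± 0.899 CPM per kb lay within their SDs there. In EV cells with DMSO the order was Cdkn2a (272), Cdkn2b (69.2), Gadd45b (23.6), Cdkn1b (18.2), Gadd45a (11.4), Gadd45g (10.3), Cdkn2c (8.07), Cdkn2d (7.62), Cdkn1a (1.82) and Cdkn1c (0.0104). Gadd45a at 11.4 ± 2.03 and Gadd45g at 10.3 ± 0.807 CPM per kb were not separated by their SDs in that group, nor were Cdkn2c at 8.07 ± 0.328 and Cdkn2d at 7.62 ± 0.386 CPM per kb (SD, n = 3 each). Cdkn1a, close to the bottom in EV cells with DMSO, was thus in the middle of the order in NRF2 cells with romidepsin.

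The counts over the lists of related genes that follow are read against the shares of all genes called with romidepsin, 40.5% higher and 39.3% lower in NRF2 cells and 39.1% higher and 37.4% lower in EV cells. The partners that these inhibitors act on were mostly lower with romidepsin. Of 11 CDKs and cyclins, 1 rose and 9 fell in each line, with a median log2 change of -1.40 in NRF2 cells and -1.04 in EV cells against 0.015 and 0.011 over all genes. Ccnd1 (cyclin D1) fell 5.51-fold in NRF2 cells, to 159 ± 8.82 CPM against 875 ± 1.91 CPM with DMSO (edgeR adjusted p = 4.4e-17), and 3.66-fold in EV cells, to 269 ± 10.2 CPM against 983 ± 22.1 CPM (SD, n = 3 each, edgeR adjusted p = 1.6e-15). Ccnd3 (cyclin D3) was the 1 gene that rose, 1.42-fold in NRF2 cells and 1.36-fold in EV cells. Cdk1 fell 3.33-fold in NRF2 cells and 2.06-fold in EV cells, and Cdk4, a target of the INK4 proteins, fell 3.11-fold in NRF2 cells and 2.55-fold in EV cells.

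Of 8 pocket protein and E2F genes, 2 rose and 6 fell in NRF2 cells, and 2 rose and 5 fell in EV cells (median -0.51 and -0.46). Rb1, the retinoblastoma protein that CDK4 and CDK6 phosphorylate, rose 2.02-fold in NRF2 cells and 1.76-fold in EV cells. Of the activating factors, E2f1 (log2 fold change -1.17 in NRF2 and -1.03 in EV cells) and E2f3 (-1.52 and -1.21) fell, whereas E2f2 rose (0.33 and 0.72). All 16 proliferation genes of the E2F list fell in both lines (median -1.55 in NRF2 and -1.04 in EV cells), among them Rrm2, the ribonucleotide reductase subunit, by 5.96-fold and 2.61-fold, and the mitotic kinase Plk1 by 4.18-fold and 3.35-fold.

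Genes for the ubiquitin ligases that destroy p27 and p21 fell in 8 of 9 cases in each line (median -1.18 in NRF2 and -0.97 in EV cells). The mitotic activator Cdc20 fell (-2.26 in NRF2 and -1.85 in EV cells), as did the scaffold Cul1 (-1.64 and -1.25), the p21-directed adaptor Dtl (-1.56 and -1.19) and the p27-directed F-box gene Skp2 (-1.18 and -1.10). Skp1 rose by 0.53 on the log2 scale in each line. The 12 GADD45 partners had 4 genes higher and 6 lower in NRF2 cells and 3 higher and 5 lower in EV cells (median -0.20 and -0.09), close to the shares of all genes. The p38 kinases' activators Map2k3 (0.89 in NRF2 and 0.68 in EV cells) and Map2k6 (0.61 and 0.69) rose, whereas the JNK activator Map2k7 fell (-1.36 and -1.27).

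Of 11 transcription factors known to act on Cdkn1a, 2 rose and 7 fell in each line (median -0.47 in NRF2 and -0.25 in EV cells). Tfap4, a repressor of Cdkn1a, fell to 4.23 ± 0.501 CPM in NRF2 cells with romidepsin, against 35.7 ± 2.29 CPM with DMSO, and to 7.45 ± 0.157 CPM in EV cells, against 39.9 ± 2.06 CPM (SD, n = 3 each). Foxo1, an activator of Cdkn1a and Cdkn1b, rose 2.16-fold in NRF2 cells and 2.24-fold in EV cells, and Klf4 rose 2.08-fold in NRF2 cells and 3.97-fold in EV cells. Trp53, the activator best known for Cdkn1a, was low with DMSO and lower with romidepsin: 2.57 ± 0.254 CPM against 13.5 ± 1.79 CPM with DMSO in NRF2 cells and 3.57 ± 0.559 CPM against 12.8 ± 0.495 CPM in EV cells. Of 11 other p53 targets tested (12 fixed), 7 rose and 1 fell in NRF2 cells, and 7 rose and 2 fell in EV cells (median 0.26 and 0.23). Trp53inp1 rose by 1.71 in NRF2 and 1.98 in EV cells on the log2 scale, Plk2 by 1.31 and 1.23, and Btg2 by 1.2 and 1.22. Against these, Bax fell in both lines (-0.25 in NRF2 and -0.27 in EV cells). Sesn2 fell in EV cells (-0.45) and did not pass in NRF2 cells (-0.09). Of 9 repressors of the Cdkn2a-Cdkn2b locus, 3 rose and 5 fell in NRF2 cells and 4 rose and 4 fell in EV cells (median -0.21 and -0.16). The Polycomb genes Bmi1 (-2.21 and -2.03) and Ezh2 (-1.15 and -0.79) fell, and Cbx7 (0.65 and 0.63) and Cbx8 (0.86 and 0.74) rose. Tbx2 rose by 2.38 in NRF2 and 1.74 in EV cells, but only to 1.28 and 0.935 CPM with romidepsin.

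With DMSO, NRF2 cells differed from EV cells in 5 of the 9 genes, of which 1 was higher and 4 were lower. Over all genes tested, 36.3% differed (19.3% higher and 16.9% lower). Cdkn1a was 2.24-fold higher in NRF2 cells (log2 fold change 1.16 ± 0.12, edgeR adjusted p = 1e-06), with 8.70 ± 0.232 CPM in NRF2 cells and 3.78 ± 0.925 CPM in EV cells (SD, n = 3 each). Gadd45b was 1.51-fold lower (-0.60 ± 0.09, edgeR adjusted p = 0.00012) and, without replicate 3 of the NRF2 cells, -0.46. Cdkn2a was 1.25-fold lower (-0.32 ± 0.05, edgeR adjusted p = 0.00013), or -0.25 without that replicate, and Cdkn2b 1.22-fold lower (-0.29 ± 0.05, edgeR adjusted p = 0.00017). Cdkn1b was 1.12-fold lower (-0.17 ± 0.06, edgeR adjusted p = 0.026), a call lost in the fit of these groups alone (edgeR adjusted p = 0.10). It was also lost without EV replicate 1 (edgeR adjusted p = 0.12), NRF2 replicate 1 (0.11) or NRF2 replicate 2 (0.094). Without NRF2 replicate 3, Cdkn1b was at -0.22 and passed (edgeR adjusted p = 0.00033). Cdkn2c, Cdkn2d, Gadd45a and Gadd45g did not pass the test, and their log2 differences lay between -0.05 and 0.06.

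With romidepsin, 3 of the 9 genes differed between the lines, 1 higher and 2 lower in NRF2 cells, where 45.4% of all genes did (23.0% higher and 22.4% lower). Cdkn1a was 1.32-fold higher in NRF2 cells (log2 fold change 0.40 ± 0.08, edgeR adjusted p = 0.00044), at 54.2 ± 2.99 CPM against 41.1 ± 1.69 CPM in EV cells (SD, n = 3 each). Gadd45b was 1.22-fold lower (-0.29 ± 0.09, edgeR adjusted p = 0.012), but not past the threshold without EV replicate 3 (0.058) or NRF2 replicate 3 (0.052). Gadd45g was 1.11-fold lower (-0.15 ± 0.06, edgeR adjusted p = 0.037), a call lost with DESeq2 (adjusted p = 0.060) and limma-trend (adjusted p = 0.078). It was also lost without EV replicate 1 or 3 or NRF2 replicate 1 or 3 (edgeR adjusted p = 0.089 to 0.14). Both passed without replicate 3 of the NRF2 cells with DMSO, Gadd45b at -0.30 (edgeR adjusted p = 1.1e-05) and Gadd45g at -0.16 (0.0057). Cdkn1c was 3.58-fold higher in NRF2 cells by its counts, 106 against 28 (95% exact counting interval 2.34 to 5.64), and each NRF2 library lay above each EV library. Its libraries with romidepsin held 30, 47 and 29 counts in NRF2 cells and 13, 11 and 4 in EV cells. Cdkn1c thus passed the low-count filter mainly through the group where it was higher, and this difference is only a description. That interval covers counting error only, not the spread between libraries. The other 6 genes did not pass, with log2 differences between -0.16 and 0.16; for Cdkn2b the 95% interval was -0.15 to 0.07 and for Cdkn2a -0.02 to 0.20.

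**Figure D4:**
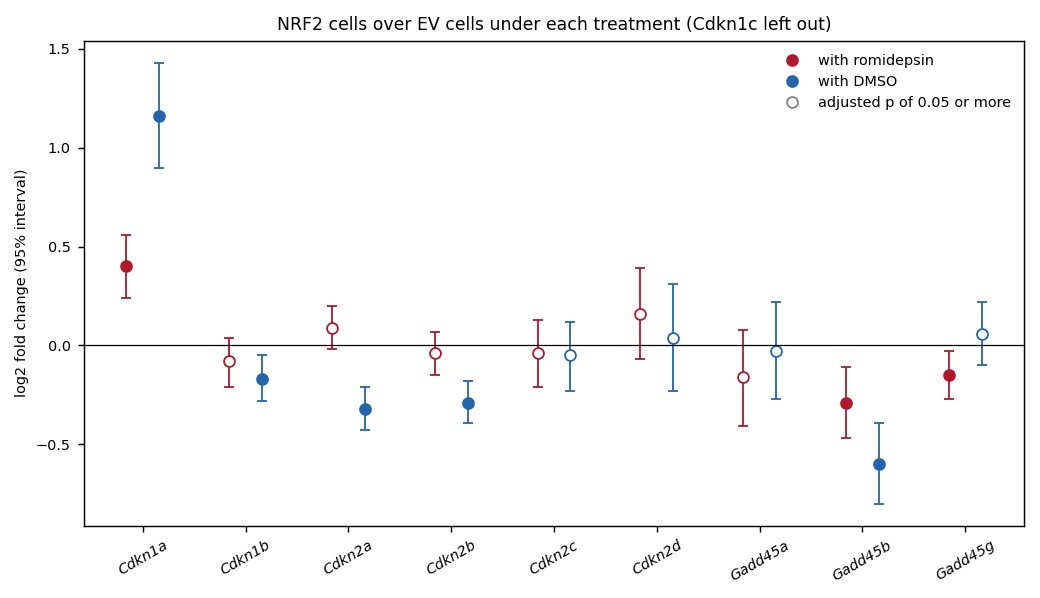
Log2 fold change of NRF2 over EV cells for the 9 genes other than Cdkn1c, with romidepsin and with DMSO, with 95% intervals; open points did not pass an adjusted p of 0.05. Cdkn1a lay at 0.40 with romidepsin and 1.16 with DMSO, and the called values of Cdkn2a and Cdkn2b lay below 0 with DMSO.

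The interaction, the log2 romidepsin effect in NRF2 cells minus that in EV cells, passed for 3 of the 9 genes (2 higher and 1 lower), where 15.8% of all genes passed (5.53% higher and 10.2% lower). For Cdkn1a it was -0.76 ± 0.15 (95% interval -1.07 to -0.45, edgeR adjusted p = 0.0019) and the fold was smaller in NRF2 cells. The gain in CPM ran the other way: Cdkn1a rose by 45.5 ± 1.73 CPM in NRF2 cells and by 37.3 ± 1.11 CPM in EV cells (SE, n = 3 per group). For Cdkn2a the interaction was 0.41 ± 0.07 (0.25 to 0.56, edgeR adjusted p = 0.0013), with a gain of 82.5 ± 9.93 CPM in NRF2 cells and 18.0 ± 5.11 CPM in EV cells (SE), and it was 0.32 without replicate 3 of the NRF2 cells with DMSO. For Cdkn2b it was 0.25 ± 0.07 (0.10 to 0.40, edgeR adjusted p = 0.024), a smaller fall in NRF2 cells, but this call was lost without the low-count filter (edgeR adjusted p = 0.050) and without EV replicate 1 of either treatment, EV with romidepsin replicate 2, or NRF2 with romidepsin replicate 3 (0.054 to 0.075). The other 6 genes did not pass. Gadd45g was at -0.21 (-0.41 to -0.01, edgeR adjusted p = 0.15) and Gadd45b at 0.31 (0.03 to 0.58, edgeR adjusted p = 0.12). Gadd45b passed without NRF2 with DMSO replicate 1 (edgeR adjusted p = 0.048). Without replicate 3 of that group it was only at 0.16 and did not pass (edgeR adjusted p = 0.19).

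Between the lines, 23.0% of all genes were higher and 22.4% lower in NRF2 cells with romidepsin, and 19.3% higher and 16.9% lower with DMSO. In the interaction 5.53% of all genes passed higher and 10.2% lower, and the median over all genes was -0.019. Among the fixed lists, 9 of 11 CDKs and cyclins and 16 of 16 proliferation genes were lower in NRF2 than in EV cells with romidepsin. With DMSO 3 of 11 CDKs and cyclins were lower, and of the proliferation genes 2 were lower and 3 higher. The interaction was negative and passed for 15 of 16 proliferation genes (median -0.45), with Rrm2 at -1.19 (edgeR adjusted p = 2.1e-07), and for 6 of 11 CDKs and cyclins (median -0.28), with Ccnd1 at -0.59 (edgeR adjusted p = 1.9e-05). Ccnd2 passed the other way at 0.18 (edgeR adjusted p = 0.045), but was lost in 11 of the 12 fits without 1 library (adjusted p = 0.052 to 0.12), and without the low-count filter (0.17). For the turnover list 6 of 9 were lower and 0 higher in NRF2 cells with romidepsin. With DMSO 2 of that list were lower and 1 higher (Ddb1 at 0.21), and 4 passed in the interaction, each lower. For the pocket protein and E2F list 5 of 8 were lower and 1 higher (Rb1 at 0.37) with romidepsin. With DMSO 2 of that list were lower and 0 higher, and 3 passed in the interaction, each lower. For the factors acting on Cdkn1a 4 of 11 were lower with romidepsin and 2 with DMSO, and the interaction passed for 2, Tfap4 at -0.64 (edgeR adjusted p = 0.002) and Klf4 at -0.93 (edgeR adjusted p = 6e-04). Of 12 GADD45 partners, 2 were higher and 2 lower with romidepsin, against 3 and 4 with DMSO. Of 9 locus repressors, 1 was higher and 3 lower with romidepsin, against 2 and 1 with DMSO, and 1 passed in the interaction, lower. Of 11 other p53 targets, 5 were higher and 3 lower with romidepsin, against 3 and 2 with DMSO.

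Levels over the 12 libraries most like those of Cdkn1a were those of Tspan9 (Pearson r = 0.996), Nptxr (0.996), Hexim1 (0.995), Kank3 (0.994) and Jam2 (0.994), out of 9868 genes. For Cdkn1c they were Plekho2 (0.980), Shc1 (0.977), Lrrc28 (0.976), Vps33b (0.975) and Tmem189 (0.975). Cdkn1c was taken by rule, as the gene of the 10 with the largest fitted interaction, but that term rests on a group at 0 counts and did not pass the test (edgeR adjusted p = 0.30). The 12 libraries form 4 groups, so these values describe shared group patterns. Hexim1, an inhibitor of the transcription elongation factor P-TEFb, was at 59.4 CPM in NRF2 cells with romidepsin and 52.4 CPM in EV cells with romidepsin, against 27.5 CPM in NRF2 cells with DMSO and 19.7 CPM in EV cells with DMSO.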

How the data were processed

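Poly-A RNA of KP1 cells was sequenced in 4 groups of 3 libraries (TruSeq chemistry, per the labels' protocols). Per the submitters' processing notes, the tools were bcl2fastq 2.19, kallisto 0.44.0 and DESeq2 (version not given in the sources used here), on the build GRCm38. Annotation, strand setting and handling of multiply mapping reads are not given in the sources used here. The deposited table held estimated counts per gene symbol, which were rounded to whole numbers before the fit. The second deposited table held a signal, the estimated counts that the authors divided by 1 factor per library. It matched division by DESeq2 size factors within a relative difference of 5.2e-15.

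Of 35013 genes, 12331 had no count, and edgeR's filterByExpr left 13502. These were tested with edgeR 4.0.16 (R 4.3.3) by a two-sided quasi-likelihood test (robust, TMM) from a single fit to the 12 libraries, which estimated 1 level per group and left 8 residual degrees of freedom. P-values were adjusted by Benjamini-Hochberg across the tested genes, and a gene was called under 0.05. The 5 contrasts share libraries. Cdkn1c was left out of counts of genes because it passed the filter only through romidepsin libraries. Levels are mean ± SD over 3 libraries. Per-kb levels used the longest GENCODE M21 transcript. Intervals of counts and the floor of 3 counts cover counting error only. The replicates are biological replicates per the series' design, and p-values measure the spread between them.

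Named were the 10 genes, Nfe2l2, and from each fixed list up to 4 called genes of at least 1 CPM that changed most, plus the one that changed most against the majority. A gene named for romidepsin in 1 line is given in both. For likeness, the 5 genes with the highest r among those of at least 5 CPM were taken. The genes and lists were chosen with earlier results of these data known. Alternatives changed the scaling (RLE, upper quartile, library size), the filter, the tool (DESeq2 1.42.0, limma 3.58.1 with voom, limma-trend on log2 of the deposited signal plus 1), the libraries fitted (compared groups alone, each library left out), the design (replicate block) or the threshold (0.01). 1 of the chosen cell type markers is not reported here.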

Additional observations from a re-analysis of the deposited data

Results flagged for a closer look

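Genes are given here because the romidepsin effect differed between NRF2 and EV cells in the edgeR test of the interaction (log2 effect in NRF2 cells minus that in EV cells). Of the inhibitors, Cdkn1a was at -0.76 (adjusted p = 0.0019), with a romidepsin effect of 2.64 in NRF2 cells and 3.40 in EV cells. Cdkn2a was at 0.41 (adjusted p = 0.0013), with 0.51 in NRF2 cells and 0.10 in EV cells. Cdkn2b was at 0.25 (adjusted p = 0.024), with -0.66 in NRF2 cells and -0.90 in EV cells. Of the listed genes, Ccnd1 was at -0.59 (adjusted p = 1.9e-05), Ccnd2 at 0.18 (0.045), Rrm2 at -1.19 (2.1e-07), Tfap4 at -0.64 (0.002) and Klf4 at -0.93 (6e-04). Cdkn2b and Ccnd2 were not called without the low-count filter (edgeR adjusted p = 0.05 and 0.17), nor in every fit without a single library. Cdkn2a was at 0.32 without replicate 3 of the NRF2 cells with DMSO.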

How the results depend on the processing

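Apart from the results given here, counts of called genes in either direction together stayed within 1.5 times those reported under every alternative run. In the comparison of NRF2 with EV cells under romidepsin, 3 of the 9 genes other than Cdkn1c were called, with 6133 called over all genes. The fit of these groups alone called 5 (7632 over all genes), and an adjusted p under 0.01 called 1 (4507). Leaving out each library gave 1 to 3 there (5086 to 7345 over all genes), 1 without replicate 3 of either group. With DMSO this gave 4 to 5 (4146 to 5797 over all genes). For romidepsin it gave 6 to 7 in EV cells (9876 to 10820) and 7 to 8 in NRF2 cells (10415 to 11005). For the interaction it gave 2 to 4 (1436 to 3049). At 0.01 the interaction called 1050 genes (309 higher and 741 lower) against 2127 (747 and 1380), and 1503 genes against 2287 were lower in NRF2 cells with DMSO. The interaction had 475 genes higher without replicate 2 of EV cells with romidepsin and 2125 lower without replicate 3 of NRF2 cells with DMSO. The sign changed only for differences that were not called: Cdkn2c under romidepsin (0.05 in EV and 0.06 in NRF2 cells with upper-quartile scaling, 0.06 and 0.09 with library-size scaling), Gadd45a in EV cells (0.07, 0.08, and 0.01 with limma-trend), and Cdkn2d in NRF2 against EV cells with DMSO (-0.01 with limma-trend). Leaving out each library, these uncalled differences ran from -0.16 to 0.07 for Gadd45a with romidepsin in EV cells. For NRF2 against EV cells with DMSO they ran from -0.15 to 0.09 for Gadd45a, -0.10 to 0.02 for Cdkn2c, -0.10 to 0.21 for Cdkn2d and -2.51 to 0.00 for Cdkn1c (whose fitted value depends on the prior count), and for the interaction from -0.07 to 0.05 for Cdkn2c and -0.06 to 0.25 for Cdkn2d. Cdkn2a under romidepsin in EV cells was also called with upper-quartile scaling, a filter of 1 CPM, DESeq2, limma-trend and the groups alone. With the groups alone, Cdkn2a and Cdkn2d were called in NRF2 against EV cells with romidepsin (adjusted p = 0.017 and 0.016). Per median transcript length 23 of 40 shares moved by over 1 SD, and with library-size CPM 16 of 40 levels did. Depth limits Cdkn1c, which had 1 count over the 6 DMSO libraries.

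Same-numbered replicates did not pair: 0 of 18 pairs had a correlation of deviations over 0.1 (range -0.123 to 0.0625), and 2 of 12 libraries were closest to their own number. With the replicate number as a block, Gadd45g in NRF2 against EV cells with romidepsin was no longer called (edgeR adjusted p = 0.06), nor was Ccnd2 in the interaction (0.076), and no other call of the 10 genes changed.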
